A study of Mus musculus with 12 samples.

Results

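The heart makes superoxide and hydrogen peroxide continuously, mainly at the mitochondrial respiratory chain, and a set of enzymes removes these oxidants and repairs the thiols and methionines they damage. Here 34 such genes were followed in the left ventricles of mice with heart failure with preserved ejection fraction (HFpEF) that had received an inhibitor of histone deacetylase 6 (HDAC6), TYA-018. The 34 genes were chosen by name, for the known function of their products and with earlier results of these data known. They were taken out of 29564 genes in the deposited tables, and all 34 were found and had enough counts to be tested. By the place where most of the protein is known to act, 7 were mitochondrial, 5 were shared between cytosol and mitochondria, 12 were cytosolic, 1 was peroxisomal, 5 belonged to the endoplasmic reticulum, 2 were secreted, and the last 2, Nfe2l2 and Keap1, encode the regulators of many of the others.

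Each of 3 groups held 4 wild-type C57BL6 mice, with 1 polyA RNA library from the left ventricle of each mouse. Control-Veh mice were non-failing and received the vehicle by mouth. HFpEF-Veh mice carried the HFD/L-NAME model, in which a high-fat diet is combined with L-NAME, an inhibitor of nitric oxide synthases, and also received the vehicle. HFpEF-TYA-018 mice carried the same model and received TYA-018 at 15 mg/kg by mouth. The paper's results describe bulk RNA from hearts taken hours after a single dose and, in larger groups than these, after weeks of daily dosing. Its methods and the treatment protocol in the labels describe daily dosing over weeks. The schedule of these hearts was not settled from these sources, and the labels give neither age nor sex. A library is named by a letter for its group (C for Control-Veh, V for HFpEF-Veh, T for HFpEF-TYA-018) and a number from 1 to 4.

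Superoxide dismutases turn superoxide into hydrogen peroxide, which is then removed by catalase, by glutathione peroxidases and by peroxiredoxins. Glutathione peroxidases are recharged by glutathione and glutathione reductase, peroxiredoxins by thioredoxin and thioredoxin reductase, and both chains draw their electrons from NADPH. When oxidants or electrophiles modify KEAP1, the transcription factor NRF2 (encoded by Nfe2l2) is no longer degraded and activates genes with antioxidant response elements, among them Srxn1, Txnrd1, Prdx1, Nqo1, Gclc, Gclm and Hmox1.

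The core of that element, TGACNNNGC, was searched on both strands of the RefSeq promoters (GRCm38.p6), from 250 bases before to 50 bases after each start site. Of the members, 27 had a promoter entry and 7 of these (25.9%) held the core, beside 3781 of 27025 genes (14%) and 4071 of 32851 promoters (12.4%) in the whole table. The 7 were Prdx1, Txnrd1, Gclm, Sod1, Nfe2l2, Srxn1 and Msrb2. Sod3, Gsr, Msra, Nnt, Gclc, Prdx6 and Hmox1 had no entry. The 4 matches below lie upstream of the start site and are shown because they set 2 members whose RNA differed between groups (Prdx1 and Txnrd1) beside 2 that the main edgeR test called in no comparison (Gclm and Sod1), with the core in capitals and 10 flanking bases on each side, read 5′ to 3′ on the strand opposite to the gene:
Prdx1, chr4:116685456-116685484: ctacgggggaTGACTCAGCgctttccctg
Txnrd1, chr10:82859104-82859132: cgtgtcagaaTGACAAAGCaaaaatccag
Gclm, chr3:122245413-122245441: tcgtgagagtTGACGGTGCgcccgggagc
Sod1, chr16:90220696-90220724: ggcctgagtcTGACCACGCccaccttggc
All 4 genes lie on the plus strand, and the matches begin at -133 for Prdx1, -92 for Txnrd1, -134 for Gclm and -56 for Sod1, counted from the start site. The Prdx1 match also contains TGACTCA, a core to which AP-1 factors bind. In Srxn1 and Msrb2 the match lay after the start site, at 28 and 39, and in Nfe2l2 it lay at -240. A match of letters says nothing of whether NRF2 occupied these sites in these hearts.

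The libraries held 61.2 to 83.9 M estimated counts (M, 1000000), with T1 the deepest. Values are given as CPM, the counts per 1000000 counts of a library after TMM scaling, and a gene is said to have risen or fallen where the edgeR quasi-likelihood test gave a Benjamini-Hochberg adjusted p under 0.05 over 14333 genes. Fold changes are on the log2 scale. Because the tissue is bulk, fewer cells of a type and less RNA per cell cannot be told apart. Globin transcripts took 0.154% to 0.240% of counts in Control-Veh, 0.420% to 1.32% in HFpEF-Veh and 0.255% to 0.341% in HFpEF-TYA-018, and transcripts encoded by the mitochondrial genome took 37.0% to 40.6%, 43.1% to 47.7% and 35.4% to 41.2%. The deposited effective length of a gene, taken as log2 relative to its mean over the 12 libraries, had a median over the genes tested of -0.059 to 0.014 in Control-Veh, 0.036 to 0.107 in HFpEF-Veh and -0.156 to 0.0064 in HFpEF-TYA-018. For all 3 measures the HFpEF-Veh libraries lay above all others (exact two-sided permutation p = 0.0286 against either group, the smallest that 4 against 4 allows, adjusted p = 0.049 over 12 tests). Their part in the results was not tested beyond the alternatives given with each count.

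Per kilobase of the principal annotated transcript, Sod1, which encodes the copper and zinc dismutase of the cytosol, was the most abundant member, at a median of 412 CPM per kilobase over the 12 libraries. Prdx5 followed at 292 and Gpx4, whose product reduces lipid peroxides in membranes, at 243. The libraries of these 3 genes overlapped in level. A second tier was formed by Gpx3 at 122, Prdx2 at 120.0 and Nnt at 115 CPM per kilobase, again with overlapping libraries, and Txn2 (77.2), Prdx3 (69.4), Cat (66.9) and Prdx1 (66.7) lay close together below them. Among the lowest were Gclc, the catalytic subunit of the enzyme that begins glutathione synthesis, at 3.32 and glutathione reductase, Gsr, at 4.63 CPM per kilobase. The modifier subunit Gclm was at 4.78 CPM per kilobase of an annotated transcript of 5589 bases, but its deposited effective length averaged 474 bases and its median TPM was 19.99 beside 1.82 for Gclc, so its place depends on the length used. Other places also depended on the length: by median TPM Gpx4 (234) stood above Prdx5 (114), and Nnt (36.3) below Prdx6 (59.6). The levels per kilobase rest on annotated lengths, because the effective lengths deposited with the counts exceeded the longest annotated transcript for 8 members, Sod2 and Gsr among them.

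**Figure D1:**
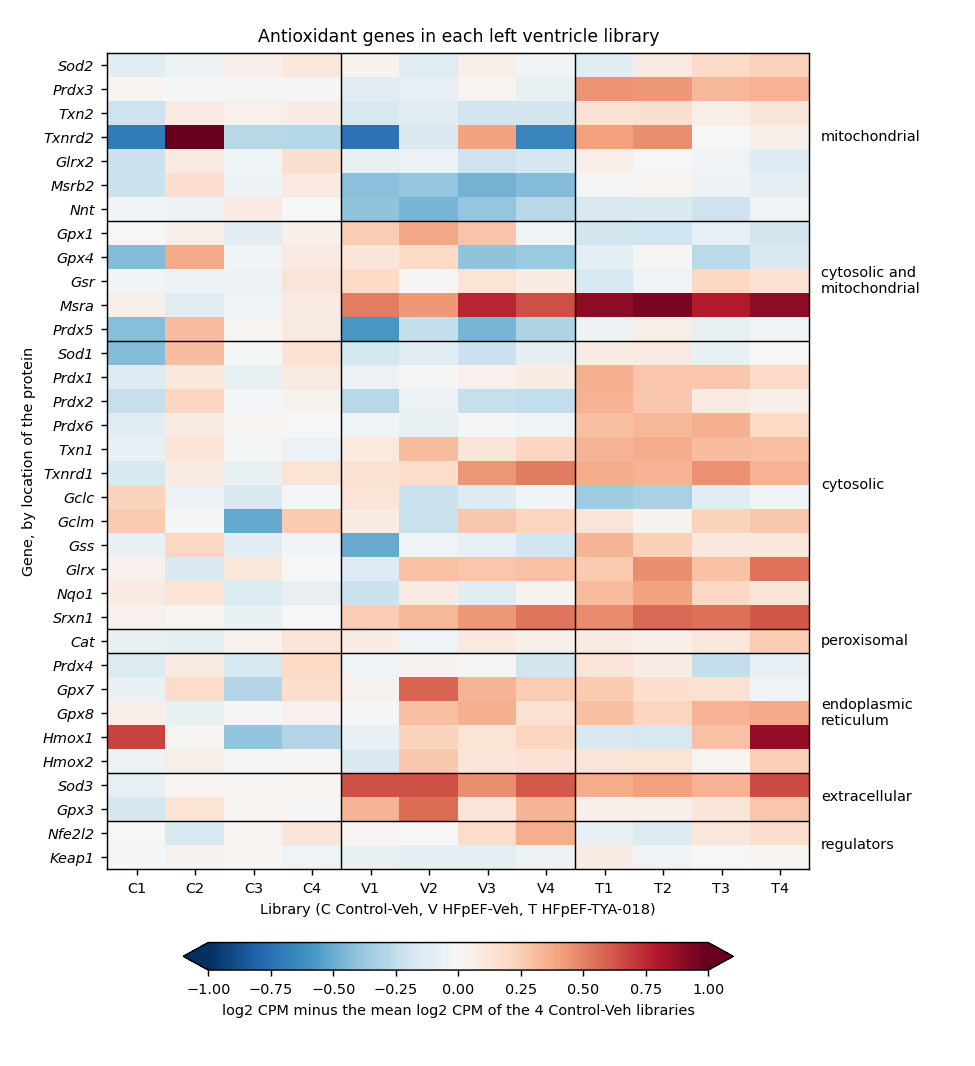
Each cell is the log2 CPM of 1 gene in 1 library minus the mean log2 CPM of that gene in the 4 Control-Veh libraries, with genes in blocks by location of the protein and colours saturating at -1 and 1. Msrb2 and Nnt are blue in all 4 HFpEF-Veh libraries, Msra, Srxn1 and Sod3 are red in all 8 HFpEF libraries, and the peroxiredoxin genes Prdx1, Prdx3 and Prdx6 are red in the 4 HFpEF-TYA-018 libraries.

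The comparison of HFpEF-Veh with Control-Veh asks how these transcripts differ in the diseased ventricle. The secreted enzymes Sod3 and Gpx3, the cytosolic Srxn1, Txn1 and Txnrd1 and the methionine reductase Msra were higher, by 1.14-fold to 1.51-fold, and Nnt, Msrb2 and Prdx5, which act in mitochondria, were lower, at 0.741 to 0.768 of the control level. These were 9 of 34 members (26.5%), 6 higher and 3 lower, beside 21.2% of all genes tested (10.9% higher and 10.3% lower). All 7 mitochondrial members had a negative log2 fold change, with a median of -0.16, the 12 cytosolic members were split 6 to 6 with a median of -0.015, and the secreted pair had a median of 0.47, beside -0.011 over all genes. Of all 14333 genes 7367 were negative. With the deposited effective lengths as an offset 29 of 34 members kept their sign, and on TPM rescaled to protein-coding nuclear genes 27 did. In 7 members (20.6%) the libraries of the groups did not overlap in CPM, 4 higher and 3 lower, beside 23.5% of all genes (12% higher and 11.5% lower). The count of calls was 5 without C3. With the deposited effective lengths as an offset it was 4 (Srxn1, Msra and Sod3 higher, Nnt lower), with the globin share as a covariate it was 0, on log2(TPM + 1) with limma it was 1 (Nnt, lower), and on that scale rescaled to protein-coding nuclear genes it was 7, 6 higher and 1 lower.

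The comparison of HFpEF-TYA-018 with HFpEF-Veh asks what differed after the inhibitor. Here 10 members rose and 1 fell, so that 11 of 34 (32.4%) were called beside 19.3% of all genes (8.93% higher and 10.4% lower). The 10 were Prdx1, Prdx2, Prdx3 and Prdx6 of the peroxiredoxins, Txn2, Nnt, Msra, Msrb2, Gss and Nqo1, and the one that fell was Gpx1. All 7 mitochondrial members were positive, with a median log2 fold change of 0.28, and 11 of 12 cytosolic members were positive with a median of 0.19, beside 0.0020 over all genes. Of all 14333 genes 7209 were positive. With effective lengths as an offset 24 of 34 members kept their sign, and on the rescaled TPM also 24. The median of the 34 members was 0.13 in the main fit, 0.059 with the offset, 0.047 on the rescaled TPM and 0.41 on log2(TPM + 1). Because both comparisons use the HFpEF-Veh libraries, a low value there lowers the first difference and raises the second. The groups did not overlap in 14 members (41.2%), 13 higher and 1 lower, beside 25.1% of all genes (12% higher and 13.1% lower). The count of calls was 6 without T1, 7 without T2 and 7 without V1. With effective lengths as an offset it was 5 (Prdx1, Prdx3, Prdx6 and Msra higher, Gpx1 lower), with the globin covariate 0, on log2(TPM + 1) it was 13, all higher, and on the rescaled TPM it was 3 (Prdx1 and Prdx3 higher, Gpx1 lower). On log2(TPM + 1) the median of all genes itself moved by 0.16 in this comparison.

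Against Control-Veh, the HFpEF-TYA-018 ventricles had 9 members higher and none lower. This was 26.5% of the list beside 5.86% of all genes (3.12% higher and 2.74% lower). An unadjusted p under 0.05 was reached by 11 of 34 members and by 3219 of 14333 genes. DESeq2 called 10, all higher. The groups did not overlap in 10 members (29.4%), all higher, beside 14.8% of all genes (7.76% higher and 7.05% lower). The 9 were Msra, Srxn1, Sod3, Prdx3, Txnrd1, Txn1, Prdx6, Prdx1 and Glrx. Cytosolic members had a median log2 fold change of 0.27 and mitochondrial members one of 0.031, beside -0.018 over all genes. With effective lengths as an offset 4 held (Msra, Sod3, Prdx3 and Prdx1), with the globin covariate 8 were called, on the rescaled TPM 2 held (Msra and Sod3), and on log2(TPM + 1) none was called, with 15 members at an unadjusted p under 0.05.

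**Figure D2:**
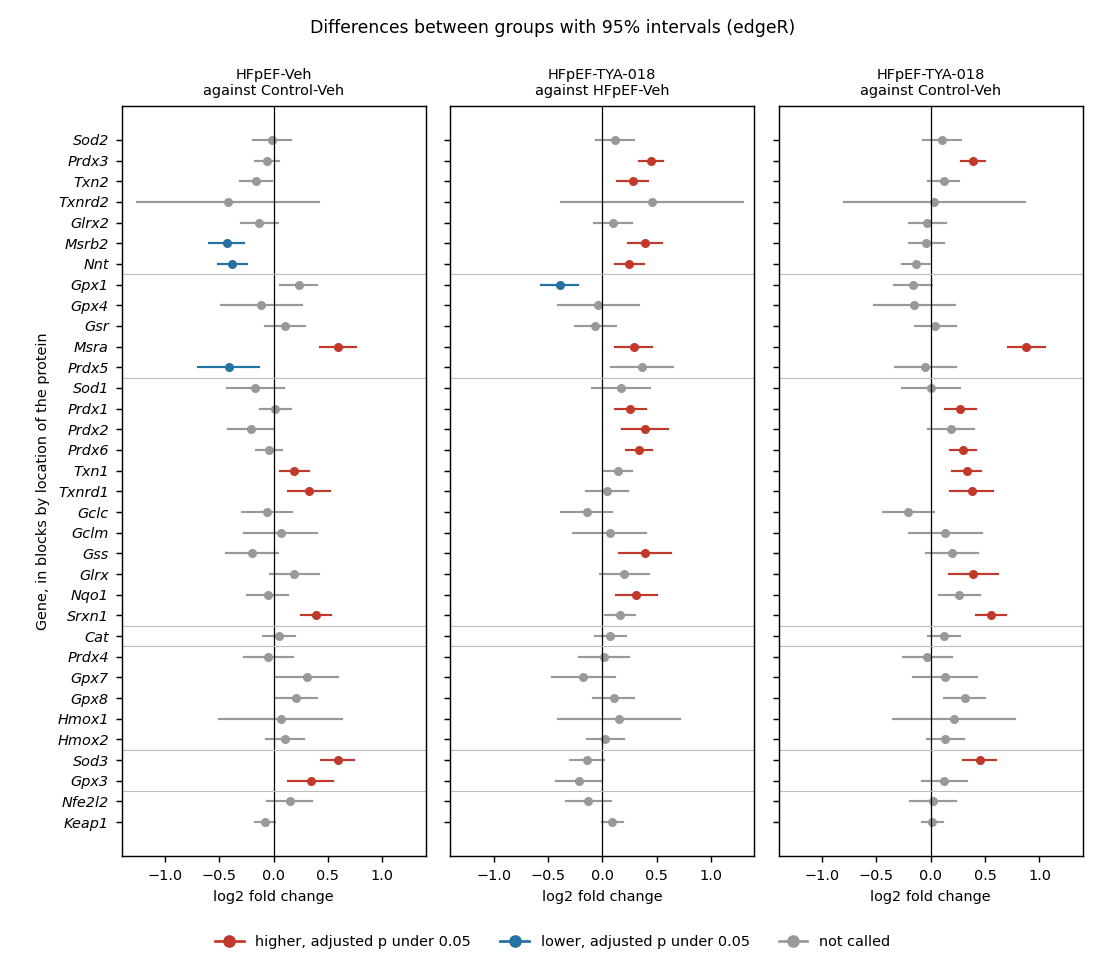
Points are edgeR log2 fold changes of the 34 genes in the 3 comparisons, lines are 95% intervals, and colour marks genes called at an adjusted p under 0.05. The 7 genes of the mitochondrial block at the top lie left of 0 in the first panel and right of 0 in the second, and the 9 called genes of the third panel lie right of 0. Txnrd2 has the widest intervals.

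Among the mitochondrial enzymes, Prdx3 encodes the peroxiredoxin that removes most hydrogen peroxide in the matrix. Its level was 103, 101, 101 and 102 CPM in Control-Veh, 93.9, 96.2, 104 and 96.4 in HFpEF-Veh and 139, 137, 128 and 129 in HFpEF-TYA-018. The 4 libraries of treated mice lay above all 8 others, and V3 reached the level of the controls. Prdx3 rose after TYA-018 by 0.45 ± 0.051 (SE, adjusted p = 0.000637) on the log2 scale, or 1.37-fold, and stood 0.39 ± 0.051 (SE, adjusted p = 0.0026) above Control-Veh, while HFpEF-Veh differed from Control-Veh by -0.059 ± 0.051 (SE, adjusted p = 0.441). The rise after TYA-018 was past the threshold in every leave-one-out fit.

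Txn2 encodes the thioredoxin that recharges PRDX3 in mitochondria. It was measured at 132, 163, 157 and 161 CPM in Control-Veh, 137, 142, 134 and 134 in HFpEF-Veh and 168, 171, 159 and 166 in HFpEF-TYA-018. All treated libraries except T3 were above every control, and all were above HFpEF-Veh, whereas C1 was below every HFpEF-Veh library. Txn2 was -0.16 ± 0.067 in HFpEF-Veh (adjusted p = 0.106) and rose after TYA-018 by 0.28 ± 0.067 (SE, adjusted p = 0.0149). Its partner reductase Txnrd2 ranged from 7.60 to 17.6 CPM outside the controls, and in the controls C2 stood at 30.3 CPM while the other 3 lay between 7.83 and 10.5. With that spread the Txnrd2 difference between HFpEF-TYA-018 and HFpEF-Veh was 0.46 (95% interval -0.38 to 1.29, adjusted p = 0.441).

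Msrb2 encodes the mitochondrial reductase that repairs the R form of oxidised methionine. Its values were 32.9, 42.9, 36.9 and 40.9 CPM in Control-Veh, 28.7, 29.2, 27.5 and 28.4 in HFpEF-Veh and 37.9, 38.9, 36.8 and 35.7 in HFpEF-TYA-018. The HFpEF-Veh libraries lay close together and below all 8 remaining libraries. Msrb2 fell by 0.43 ± 0.073 in HFpEF-Veh (SE, adjusted p = 0.00226), rose by 0.39 ± 0.073 (SE, adjusted p = 0.00476) after TYA-018, and then differed from Control-Veh by -0.041 (95% interval -0.20 to 0.12, adjusted p = 0.795). Its deposited effective length was 343 bases in V3, 385 in T3 and 385 in T4 but 1690.4 to 2535 in the other libraries, and with these lengths as an offset the log2 difference in HFpEF-Veh turned to 0.66 (adjusted p = 0.602).

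Nnt encodes nicotinamide nucleotide transhydrogenase, the inner membrane enzyme that makes mitochondrial NADPH from the proton gradient. It stood at 434, 426, 468 and 441 CPM in Control-Veh, 335, 320.2, 339 and 365 in HFpEF-Veh and 399, 400.0, 384 and 432 in HFpEF-TYA-018. The HFpEF-Veh libraries were the lowest 4 of the 12, and T4 reached into the range of the controls. Nnt fell by 0.38 ± 0.062 in HFpEF-Veh (SE, adjusted p = 0.00186) and rose by 0.25 ± 0.062 (SE, adjusted p = 0.0166) after TYA-018. C57BL/6J mice, the substrain named in the methods, are known to carry a deletion within Nnt that abolishes the protein, and the labels give only C57BL6. Counts summed over the gene do not show whether these transcripts were whole.

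Sod2, the manganese dismutase of the matrix, was not called by edgeR, with a log2 difference of -0.015 (95% interval -0.19 to 0.16, adjusted p = 0.921) in HFpEF-Veh and of 0.12 (95% interval -0.054 to 0.29, adjusted p = 0.322) after TYA-018. In the latter comparison Sod2 was called higher by limma on log2(TPM + 1), with and without a filter, and on log2(TPM + 0.1), but not on the rescaled TPM. Its level was 104 to 119 CPM in Control-Veh, 102 to 116 in HFpEF-Veh and 104 to 131 in HFpEF-TYA-018. Glrx2, a mitochondrial glutaredoxin, ranged from 17.7 to 22.8 CPM over the 12 libraries and was called in no comparison. The cardiomyocyte list holds 6 sarcomere and calcium handling genes of the cells richest in mitochondria. It summed to 18103 to 22528 CPM in Control-Veh, 17177 to 18767 in HFpEF-Veh and 18963 to 20918 in HFpEF-TYA-018. In HFpEF-Veh 3 of 6 were lower and 1 was higher, beside 10.3% and 10.9% of all genes. After TYA-018, 2 of 6 were higher, beside 8.93% of all genes. The part of this shift in the mitochondrial members was not tested.

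**Figure D3:**
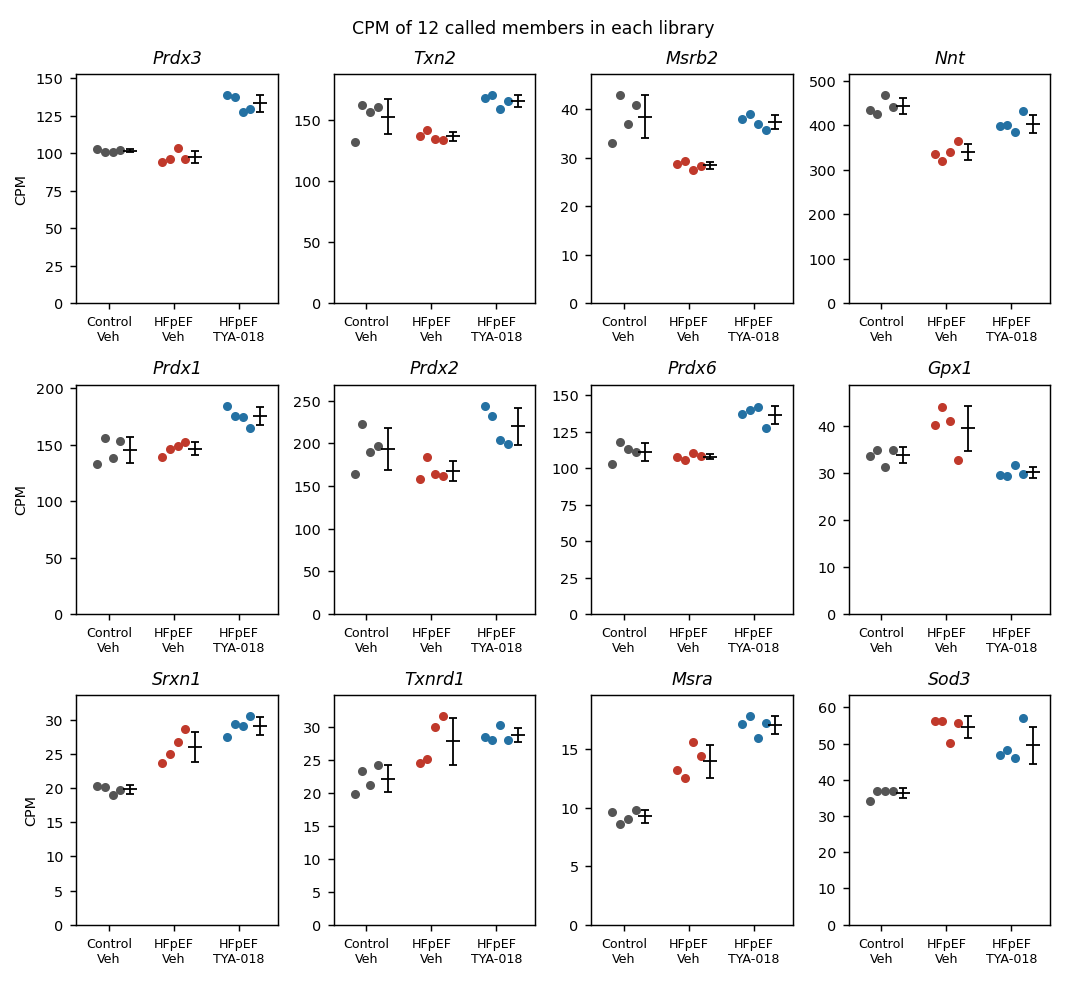
Points are the CPM of single libraries for 12 of the called genes, bars beside them are the mean and SD of 4 libraries, and each axis starts at 0. The upper row shows mitochondrial genes low in HFpEF-Veh or high after TYA-018, the middle row 3 cytosolic peroxiredoxins that are highest after TYA-018 and Gpx1, which is highest in HFpEF-Veh, and the lower row 4 genes that stand above the controls in both HFpEF groups.

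Of the enzymes found in both cytosol and mitochondria, Msra had the largest difference of both HFpEF groups from Control-Veh. MSRA repairs the S form of oxidised methionine in both compartments. Msra was measured at 9.58, 8.59, 9.00 and 9.78 CPM in Control-Veh, 13.2, 12.5, 15.6 and 14.4 in HFpEF-Veh and 17.1, 17.8, 16.0 and 17.2 in HFpEF-TYA-018. The 3 groups formed 3 steps without any overlap. It rose by 0.59 ± 0.078 (SE, adjusted p = 0.000779) in HFpEF-Veh, by a further 0.29 ± 0.077 (SE, adjusted p = 0.0234) after TYA-018, and stood 0.88 ± 0.078 (SE, adjusted p = 0.000221), or 1.84-fold, above Control-Veh. The further step was lost without V1, V2, T1 or T2 (adjusted p from 0.0152 to 0.0672 over the 12 leave-one-out fits), whereas the other differences held in all 12.

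Gpx1 encodes the main glutathione peroxidase of the cell, a selenoprotein. It was found at 33.7, 34.9, 31.4 and 35.0 CPM in Control-Veh, 40.2, 44.0, 41.1 and 32.7 in HFpEF-Veh and 29.6, 29.3, 31.8 and 29.7 in HFpEF-TYA-018. V1, V2 and V3 were above all controls and V4 was not, and every treated library lay below every HFpEF-Veh library. Gpx1 fell after TYA-018 by 0.39 ± 0.08 (SE, adjusted p = 0.00696), and its difference in HFpEF-Veh was 0.23 (95% interval 0.055 to 0.40, adjusted p = 0.0599), which DESeq2 and the fit without V4 called. It was the one member that fell after the inhibitor, and on log2(TPM + 1) that call was lost. In the red cell list 8 of 10 genes were tested. They summed to 1563 to 2318 CPM in Control-Veh, 4797 to 14164 in HFpEF-Veh and 2306.9 to 3581 in HFpEF-TYA-018. The part of blood in the values of Gpx1 and of the other members was not tested. With the globin covariate the Gpx1 call was lost, as were all 11 member calls of this comparison. The globin share of every HFpEF-Veh library lay above that of all others, so that fit cannot tell the globin share from the group.

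Prdx5, a peroxiredoxin of mitochondria, peroxisomes and cytosol, was at 286, 478, 392.1 and 409 CPM in Control-Veh, 257, 326, 279 and 312 in HFpEF-Veh and 371, 401, 366 and 375 in HFpEF-TYA-018. C1 lay within the HFpEF-Veh range and the other controls above it. Prdx5 fell by 0.42 ± 0.13 in HFpEF-Veh (SE, adjusted p = 0.0393), a call that was lost without C2, C3, C4, V1, V3, V4, T2 or T3 (adjusted p from 0.0023 to 0.111 over the 12 leave-one-out fits). All 4 treated libraries were above all HFpEF-Veh libraries, with a difference of 0.37 (95% interval 0.085 to 0.65, adjusted p = 0.0671) that missed the threshold in the main fit. It was called by DESeq2, in the fit of 2 groups only, without C1, without C2 and by limma on log2(TPM + 1) and log2(TPM + 0.1). Gpx4 ranged from 180.0 to 317 CPM and Gsr from 10.8 to 13.9 CPM, and edgeR called neither in any comparison. Limma on log2(TPM + 1) and log2(TPM + 0.1) called Gsr higher after TYA-018, where the edgeR log2 difference was -0.063.

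In the cytosol, the genes of the thioredoxin and sulfiredoxin branch were higher in both HFpEF groups. Sulfiredoxin, encoded by Srxn1, reactivates peroxiredoxins that have been overoxidised. Srxn1 was at 20.4, 20.2, 19.0 and 19.8 CPM in Control-Veh, 23.7, 24.997, 26.8 and 28.7 in HFpEF-Veh and 27.5, 29.4, 29.1 and 30.5 in HFpEF-TYA-018. Every HFpEF library of either treatment lay above every control, and the HFpEF groups overlapped with each other. Srxn1 rose by 0.39 ± 0.064 (SE, adjusted p = 0.00198) in HFpEF-Veh and stood 0.55 ± 0.064 (SE, adjusted p = 0.00127), or 1.47-fold, above Control-Veh after TYA-018, while the HFpEF groups differed by 0.16 (95% interval 0.022 to 0.30, adjusted p = 0.0982), a difference called without V4.

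Txnrd1 encodes the cytosolic thioredoxin reductase, a selenoprotein. Its values were 19.9, 23.3, 21.1 and 24.2 CPM in Control-Veh, 24.5, 25.1, 29.9 and 31.6 in HFpEF-Veh and 28.5, 28.0, 30.3 and 28.0 in HFpEF-TYA-018. V1 lay only slightly above C4, the highest control, while the treated libraries were close together. Txnrd1 rose by 0.33 ± 0.09 (SE, adjusted p = 0.0228) in HFpEF-Veh and stood 0.38 ± 0.089 (SE, adjusted p = 0.032) above Control-Veh after TYA-018. The first call was lost without C3, V3 or V4 (adjusted p from 0.0144 to 0.0664 over the 12 leave-one-out fits) and the second without C1, C3, T1, T2, T3 or T4 (adjusted p from 0.0268 to 0.0822 over the 12 leave-one-out fits). Its substrate thioredoxin, Txn1, was at 34.8, 40.1, 36.3 and 35.1 CPM in Control-Veh, 39.1, 45.4, 39.7 and 42.4 in HFpEF-Veh and 46.2, 47.2, 45.3 and 45.1 in HFpEF-TYA-018. V1 and V3 were below C2, so HFpEF-Veh overlapped the controls, and the treated libraries were above all controls. Txn1 rose by 0.19 ± 0.062 (SE, adjusted p = 0.0478) in HFpEF-Veh, a call lost without C1, C3, C4, V2, V3, V4, T1, T2, T3 or T4 (adjusted p from 0.0229 to 0.123 over the 12 leave-one-out fits), and stood 0.33 ± 0.062 (SE, adjusted p = 0.0128) above Control-Veh after TYA-018, which held in all 12 fits.

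Of the cytosolic peroxiredoxins, Prdx1 and Prdx6 stood above both other groups in the treated mice, and Prdx2 above HFpEF-Veh. Prdx1, a peroxidase that also acts as a redox relay, was at 133, 156, 138 and 154 CPM in Control-Veh, 139, 146, 149 and 152 in HFpEF-Veh and 185, 176, 175 and 165 in HFpEF-TYA-018. The treated libraries were the highest 4 and the remaining groups overlapped. Prdx1 rose after TYA-018 by 0.26 ± 0.066 (SE, adjusted p = 0.0187) and stood 0.27 ± 0.066 (SE, adjusted p = 0.0333) above Control-Veh, with a difference of 0.015 (95% interval -0.13 to 0.16, adjusted p = 0.9) in HFpEF-Veh. The call against HFpEF-Veh was lost without V1 or T1 (adjusted p from 0.00988 to 0.0578 over the 12 leave-one-out fits) and that against Control-Veh without C1, C3, C4, T1, T2 or T3 (adjusted p from 0.0336 to 0.0838 over the 12 leave-one-out fits).

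Prdx6, the peroxiredoxin that uses glutathione and reduces phospholipid peroxides, was at 103, 118, 113 and 111 CPM in Control-Veh, 108, 106, 110.3 and 108 in HFpEF-Veh and 137, 139.6, 142 and 127 in HFpEF-TYA-018. Again the treated libraries were above all 8 others, and the HFpEF-Veh libraries lay inside the range of the controls. Prdx6 rose after TYA-018 by 0.34 ± 0.056 (SE, adjusted p = 0.00286) and stood 0.30 ± 0.056 (SE, adjusted p = 0.0142) above Control-Veh, both in all 12 leave-one-out fits. Prdx2, a peroxiredoxin of the cytosol, was at 164, 223, 189.7 and 197 CPM in Control-Veh, 159, 185, 164 and 162 in HFpEF-Veh and 244, 232, 204 and 199 in HFpEF-TYA-018. Treated libraries lay above HFpEF-Veh but overlapped the controls through C2. Prdx2 rose after TYA-018 by 0.39 ± 0.098 (SE, adjusted p = 0.0167), a call lost without T1 or T2 (adjusted p from 0.00739 to 0.0549 over the 12 leave-one-out fits), and its difference in HFpEF-Veh was -0.21 (95% interval -0.42 to 0.0027, adjusted p = 0.145).

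Nqo1 encodes a quinone reductase that is a common readout of NRF2. It was at 37.2, 38.5, 31.8 and 33.04 CPM in Control-Veh, 30.1, 37.0, 32.4 and 35.8 in HFpEF-Veh and 43.5, 46.3, 40.4 and 38.1 in HFpEF-TYA-018. The treated libraries were above HFpEF-Veh, T4 was below C2, and the controls and HFpEF-Veh overlapped. Nqo1 rose after TYA-018 by 0.32 ± 0.087 (SE, adjusted p = 0.0269), a call lost without V1, V3, T1 or T2 (adjusted p from 0.0195 to 0.0828 over the 12 leave-one-out fits), and was -0.054 (95% interval -0.24 to 0.14, adjusted p = 0.7) in HFpEF-Veh.

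Gss, glutathione synthetase, catalyses the last step of glutathione synthesis. It was at 8.90, 10.9, 8.72 and 9.22 CPM in Control-Veh, 6.62, 9.15, 8.89 and 8.21 in HFpEF-Veh and 11.9, 11.1, 10.1 and 10.1 in HFpEF-TYA-018. The treated libraries were above all HFpEF-Veh libraries and overlapped the controls through C2. Gss rose after TYA-018 by 0.39 ± 0.11 (SE, adjusted p = 0.0271), a call lost without V1, V4, T1 or T2 (adjusted p from 0.0214 to 0.0833 over the 12 leave-one-out fits). The catalytic and modifier subunits of the first enzyme were not called: after TYA-018 Gclc differed by -0.14 (95% interval -0.38 to 0.087, adjusted p = 0.371) and Gclm by 0.069 (95% interval -0.26 to 0.40, adjusted p = 0.792). Glrx, the cytosolic glutaredoxin that removes glutathione from proteins, was at 10.96, 9.63, 11.5 and 10.7 CPM in Control-Veh, 9.75, 13.1, 12.9 and 13.04 in HFpEF-Veh and 12.8, 14.8, 13.1 and 15.5 in HFpEF-TYA-018. V1 was among the controls while the other HFpEF-Veh libraries stood near the treated ones. Glrx stood 0.39 ± 0.1 (SE, adjusted p = 0.0474) above Control-Veh after TYA-018, a call lost without C1, C2, C3, C4, V2, V3, V4, T1, T2, T3 or T4 (adjusted p from 0.02 to 0.119 over the 12 leave-one-out fits).

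Sod1 was at 202, 336, 268 and 301 CPM in the controls, so that C1 and C2 spanned all other libraries, with 234 to 256.1 CPM in HFpEF-Veh and 260.3 to 290.0 in HFpEF-TYA-018. Its difference was -0.17 (95% interval -0.43 to 0.10, adjusted p = 0.344) in HFpEF-Veh and 0.17 (95% interval -0.093 to 0.44, adjusted p = 0.351) after TYA-018. The latter groups did not overlap, and edgeR did not call the difference. Limma called it on log2(TPM + 1), with and without a filter, and on log2(TPM + 0.1), but not on the rescaled TPM. Without C1, edgeR called Sod1, Prdx2 and Txn2 in HFpEF-Veh.

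Catalase, the peroxisomal enzyme, was measured at 167 ± 11.95 CPM (SD, n = 4) in Control-Veh, 172 ± 7.24 CPM (SD, n = 4) in HFpEF-Veh and 182 ± 11.4 CPM (SD, n = 4) in HFpEF-TYA-018, and its log2 difference was 0.046 (95% interval -0.10 to 0.19, adjusted p = 0.668) in HFpEF-Veh and 0.075 (95% interval -0.071 to 0.22, adjusted p = 0.468) after TYA-018. None of the 5 members of the endoplasmic reticulum was called in any comparison by the main edgeR test. Of the 5, 2 had an unadjusted p under 0.05 in HFpEF-Veh, none after TYA-018 and 1 against Control-Veh. Over all 14333 genes these counts were 5093, 4753 and 3219. Gpx8, a peroxidase of that compartment, came closest, at 5.96 to 6.46 CPM in Control-Veh and 7.27 to 8.11 after TYA-018 without overlap, a difference of 0.31 (95% interval 0.12 to 0.50, adjusted p = 0.0575) that DESeq2 and the fit without V1 called. Gpx8 was also called in HFpEF-Veh without V1, and after TYA-018 by limma on log2(TPM + 1) and log2(TPM + 0.1). Gpx7 ranged from 4.07 to 7.45 CPM and Prdx4 from 7.37 to 10.0 CPM. Heme oxygenases degrade heme: Hmox2, the constitutive form, ranged from 37.7 to 50.5 CPM, and Hmox1, the inducible form, from 5.98 to 14.5 CPM, with C1 and T4 the highest and a difference of 0.064 (95% interval -0.50 to 0.63, adjusted p = 0.889) in HFpEF-Veh.

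The secreted enzymes both rose in HFpEF-Veh. Sod3 encodes extracellular superoxide dismutase, which binds heparan sulfate in the matrix and protects nitric oxide from superoxide. It was at 34.2, 36.9, 36.9 and 37.0 CPM in Control-Veh, 56.3, 56.2, 50.1 and 55.5 in HFpEF-Veh and 46.8, 48.1, 46.1 and 56.9 in HFpEF-TYA-018. All 8 HFpEF libraries were above all controls, and T4 was the highest of the 12. Sod3 rose by 0.59 ± 0.071 (SE, adjusted p = 0.000538), or 1.504-fold, in HFpEF-Veh, was -0.14 (95% interval -0.29 to 0.014, adjusted p = 0.189) after TYA-018, and still stood 0.45 ± 0.071 (SE, adjusted p = 0.00552) above Control-Veh. Both calls held in all 12 leave-one-out fits, and the difference after TYA-018 was called without T4.

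Gpx3 encodes the glutathione peroxidase of plasma and extracellular space. It was at 159, 197, 182 and 181 CPM in Control-Veh, 227, 264, 195 and 228 in HFpEF-Veh and 186, 186, 195 and 218 in HFpEF-TYA-018. V3 lay just under C2 and the other HFpEF-Veh libraries were above every control. Gpx3 rose by 0.34 ± 0.096 (SE, adjusted p = 0.025) in HFpEF-Veh, a call lost without C3, C4 or V2 (adjusted p from 0.0146 to 0.0613 over the 12 leave-one-out fits), and was -0.22 (95% interval -0.42 to -0.0094, adjusted p = 0.134) after TYA-018. Fibroblasts, smooth muscle and endothelium are known sources of secreted enzymes. The fibroblast list (5 of 5 genes tested) summed to 365 to 544 CPM in Control-Veh, 518 to 736 in HFpEF-Veh and 326 to 507 in HFpEF-TYA-018, the endothelial list (4 of 4) to 537 to 669, 715 to 879 and 523 to 679.9, and the smooth muscle and pericyte list (4 of 4) to 595 to 706, 736 to 803 and 532 to 668. In HFpEF-Veh 2 of 5 fibroblast, 3 of 4 endothelial and 1 of 4 smooth muscle and pericyte genes rose, beside 10.9% of all genes. After TYA-018, 3, 3 and 1 genes of these lists fell, beside 10.4% of all genes. The smooth muscle and pericyte genes did not move together. In each of these comparisons 3 of 4 had a positive log2 fold change, with ranges of -0.44 to 0.69 and -0.44 to 0.16. The part of these cell types in the Sod3 and Gpx3 results was not tested.

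Neither regulator was called. Nfe2l2 was at 45.2 to 54.8 CPM in Control-Veh, 50.2 to 64.7 in HFpEF-Veh and 45.7 to 56.9 in HFpEF-TYA-018, with differences of 0.15 (95% interval -0.061 to 0.36, adjusted p = 0.293) in HFpEF-Veh and -0.13 (95% interval -0.34 to 0.081, adjusted p = 0.378) after TYA-018. Keap1 was at 44.7 to 47.2, 43.0 to 44.2 and 44.6 to 48.4 CPM. Its HFpEF-Veh libraries lay below all others, yet the difference of -0.078 (95% interval -0.17 to 0.016, adjusted p = 0.221) missed the threshold. NRF2 is regulated mainly through the stability of the protein, which RNA does not show.

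Of 9 genes for partners and repressors, 3 rose in HFpEF-Veh (33.3%, beside 10.9% of all genes) and 1 fell after TYA-018 (11.1%, beside 10.4%). Maff, a small MAF protein that pairs with NRF2 on DNA, was at 15.9, 13.4, 13.2 and 14.1 CPM in Control-Veh, 19.0, 19.8, 20.5 and 21.8 in HFpEF-Veh and 13.3, 13.6, 13.4 and 10.7 in HFpEF-TYA-018. The HFpEF-Veh libraries were above all 8 others. Maff rose by 0.52 ± 0.088 (SE, adjusted p = 0.0023) and fell after TYA-018 by 0.67 ± 0.088 (SE, adjusted p = 0.00117). Mafk, another small MAF protein, rose by 0.30 ± 0.063 (SE, adjusted p = 0.00633) in HFpEF-Veh, and Nfe2l1, which encodes the related factor NRF1, rose by 0.33 ± 0.084 (SE, adjusted p = 0.0156) and stood 0.43 ± 0.084 (SE, adjusted p = 0.0155) above Control-Veh after TYA-018. Of 15 tested genes listed as other NRF2 targets, 2 rose and 4 fell in HFpEF-Veh, and 4 rose and 2 fell after TYA-018, 40% in each case beside 21.2% and 19.3% of all genes. Aox1, an aldehyde oxidase, fell by 0.63 ± 0.12 in HFpEF-Veh (SE, adjusted p = 0.00446) and rose by 0.64 ± 0.12 (SE, adjusted p = 0.00539) after TYA-018. The autophagy receptor gene Sqstm1 followed the same order, at -0.23 ± 0.071 (SE, adjusted p = 0.0411) and 0.45 ± 0.071 (SE, adjusted p = 0.00246), and Ftl1, ferritin light chain, rose after TYA-018 by 0.46 ± 0.087 (SE, adjusted p = 0.005).

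Oxidant sources were listed as the counterpart of these enzymes. Of 14 tested genes, 4 rose and none fell in HFpEF-Veh, and 5 fell and none rose after TYA-018, with medians of 0.22 and -0.32 beside -0.011 and 0.0020 over all genes. These were 28.6% and 35.7% of the list, beside 10.9% of all genes higher in the first comparison and 10.4% lower in the second. Ncf1 encodes the p47 organiser of the phagocyte NADPH oxidase. It was at 3.45, 4.01, 3.04 and 3.12 CPM in Control-Veh, 5.60, 6.34, 6.56 and 6.13 in HFpEF-Veh and 3.61, 3.25, 3.37 and 2.77 in HFpEF-TYA-018. The HFpEF-Veh libraries were above all others. Ncf1 rose by 0.86 ± 0.12 (SE, adjusted p = 0.000906) and fell after TYA-018 by 0.92 ± 0.12 (SE, adjusted p = 0.000948). Rac1, the GTPase that activates the oxidase, showed differences of 0.32 ± 0.072 (SE, adjusted p = 0.0091) and -0.35 ± 0.072 (SE, adjusted p = 0.00722), and Cybb, the catalytic subunit, fell after TYA-018 by 0.54 ± 0.13 (SE, adjusted p = 0.0164) after a difference of 0.40 ± 0.13 (SE, adjusted p = 0.0541) in HFpEF-Veh. The macrophage list was taken without Adgre1, which was too low to be tested. It summed to 88.1 to 118 CPM in Control-Veh, 134 to 178 in HFpEF-Veh and 104 to 125 in HFpEF-TYA-018. Of its 5 tested genes, 4 rose in HFpEF-Veh (80%, beside 10.9% of all genes). The part of macrophages in the oxidase genes was not tested. Neutrophil markers summed to at most 6.09 CPM in any library.

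Glutathione transferases conjugate glutathione to electrophiles. Of 19 genes tested, 7 fell and none rose in HFpEF-Veh (median -0.27), and 5 rose and none fell after TYA-018 (median 0.23). These were 36.8% and 26.3% of the list, beside 10.3% of all genes lower in the first comparison and 8.93% higher in the second. None was called against Control-Veh after TYA-018 by edgeR, with 4 of 19 at an unadjusted p under 0.05 beside 3219 of 14333 genes. Gstk1, the transferase of mitochondria and peroxisomes, was at 51.5, 77.7, 65.0 and 64.8 CPM in Control-Veh, 45.8, 42.8, 42.1 and 44.1 in HFpEF-Veh and 65.2, 64.3, 60.5 and 60.0 in HFpEF-TYA-018. HFpEF-Veh was below both other groups without overlap. Gstk1 differed by -0.57 ± 0.097 (SE, adjusted p = 0.00242) and by 0.52 ± 0.097 (SE, adjusted p = 0.005). Gstz1, which also acts in tyrosine breakdown, showed -0.55 ± 0.073 (SE, adjusted p = 0.000784) and 0.28 ± 0.073 (SE, adjusted p = 0.0207), and Gstm4 showed -0.27 ± 0.081 (SE, adjusted p = 0.0338) and 0.51 ± 0.08 (SE, adjusted p = 0.00221).

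**Figure D4:**
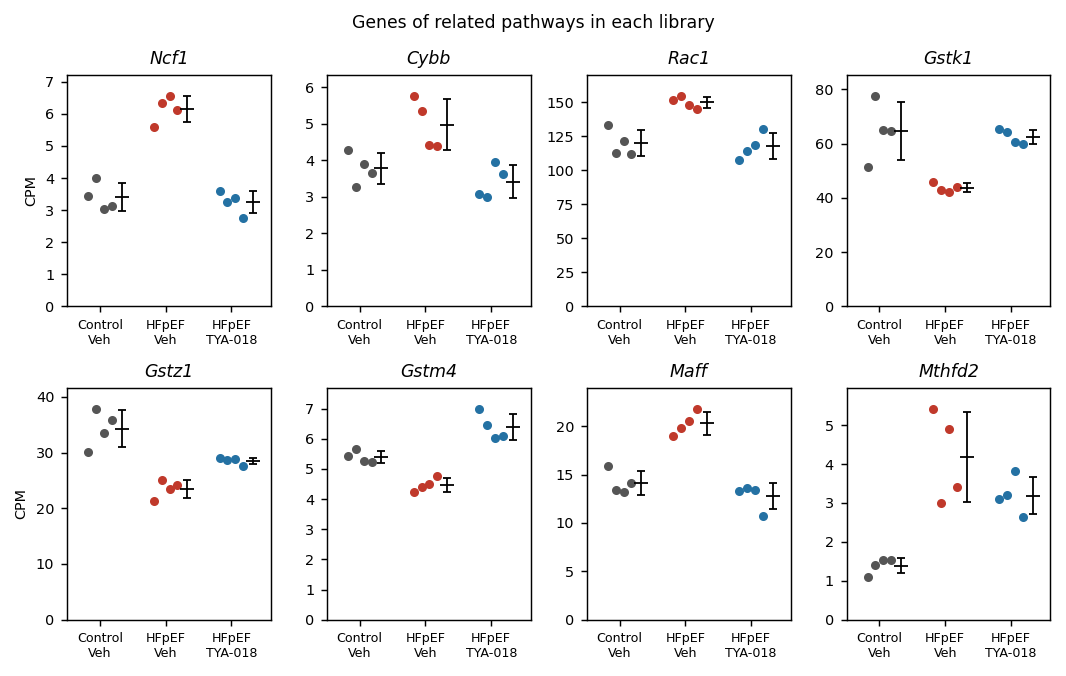
Points are the CPM of single libraries for 8 genes of related pathways, bars are the mean and SD of 4 libraries, and each axis starts at 0. The oxidase genes Ncf1, Cybb and Rac1 and the NRF2 partner Maff are highest in HFpEF-Veh, the transferases Gstk1, Gstz1 and Gstm4 are lowest there, and Mthfd2 is above the controls in all 8 HFpEF libraries.

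The genes listed under NADPH supply were mixed. Of 16 tested, 3 rose and 3 fell in HFpEF-Veh, 3 rose and 1 fell after TYA-018, and 4 were higher than in Control-Veh after TYA-018. These were 37.5%, 25% and 25% of the list, beside 21.2%, 19.3% and 5.86% of all genes. Mthfd2, a mitochondrial folate enzyme, was at 1.099, 1.41, 1.53 and 1.53 CPM in Control-Veh, 5.42, 3.00, 4.91 and 3.40 in HFpEF-Veh and 3.11, 3.20, 3.81 and 2.63 in HFpEF-TYA-018. All 8 HFpEF libraries exceeded all controls. Mthfd2 rose by 1.59 ± 0.2 (SE, adjusted p = 0.000712) and stood 1.196 ± 0.2 (SE, adjusted p = 0.00827) above Control-Veh after TYA-018. Me1, cytosolic malic enzyme, rose by 0.34 ± 0.065 (SE, adjusted p = 0.00427) in HFpEF-Veh and stood 0.49 ± 0.065 (SE, adjusted p = 0.0027) above Control-Veh after TYA-018, and Nadk, which phosphorylates NAD, showed differences of 0.19 ± 0.052 (SE, adjusted p = 0.0246) and -0.25 ± 0.052 (SE, adjusted p = 0.00783).

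Among 8 genes of selenoprotein synthesis, on which GPX1, GPX3, GPX4, TXNRD1 and TXNRD2 depend, 2 fell in HFpEF-Veh (25%, beside 10.3% of all genes) and none was called after TYA-018 by edgeR, nor had any an unadjusted p under 0.05 there. Secisbp2, which binds the selenocysteine insertion element, differed by -0.52 ± 0.095 (SE, adjusted p = 0.00345) in HFpEF-Veh and Sepsecs, which makes selenocysteine on its tRNA, by -0.36 ± 0.089 (SE, adjusted p = 0.0149). Of 11 tested peroxisomal genes, 2 fell in HFpEF-Veh (18.2%, beside 10.3% of all genes) and 4 rose after TYA-018 (36.4%, beside 8.93%). Ehhadh, an enzyme of peroxisomal fatty acid oxidation, differed by -0.72 ± 0.16 (SE, adjusted p = 0.0103) in HFpEF-Veh, and Pex5, the import receptor for catalase, by -0.21 ± 0.055 (SE, adjusted p = 0.0185) and then by 0.28 ± 0.055 (SE, adjusted p = 0.00582). Of 12 tested genes for other peroxidases, reductases and glutaredoxins, 2 rose in HFpEF-Veh (16.7%, beside 10.9% of all genes) and 1 fell after TYA-018 (8.33%, beside 10.4%): Qsox1, a secreted thiol oxidase, at 0.61 ± 0.089 (SE, adjusted p = 0.00109) and -0.48 ± 0.088 (SE, adjusted p = 0.00448), and Msrb3, a methionine sulfoxide reductase, at 0.53 ± 0.097 (SE, adjusted p = 0.0032) in HFpEF-Veh. None of the 3 metallothionein genes was called by edgeR in any comparison. In HFpEF-Veh 1 of them had an unadjusted p under 0.05, beside 5093 of 14333 genes.

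The deposited effective length of a gene is the length that Salmon and tximport gave it in that library, and it enters TPM as a divisor. It need not equal a transcript length, and its mean exceeded the longest annotated transcript for 8 members. The methods list Salmon settings for sequence, GC and position bias, and their part in these lengths was not tested. For some members the effective length was far from constant. For Msrb2 it varied 7.39-fold among the 12 libraries, for Cat 3.61-fold, for Gpx4 2.48-fold, for Gss 2.24-fold and for Txnrd2 2.14-fold, beside a median of 1.43-fold over the genes tested. For Prdx3 it was between 1141 and 1444 bases. In Cat the CPM ranged from 157 to 198 while the effective length fell to 1179 bases in V2, 989 in V3 and 1066 in T1 from 2666 to 3569 in the other 9 libraries.

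**Figure D5:**
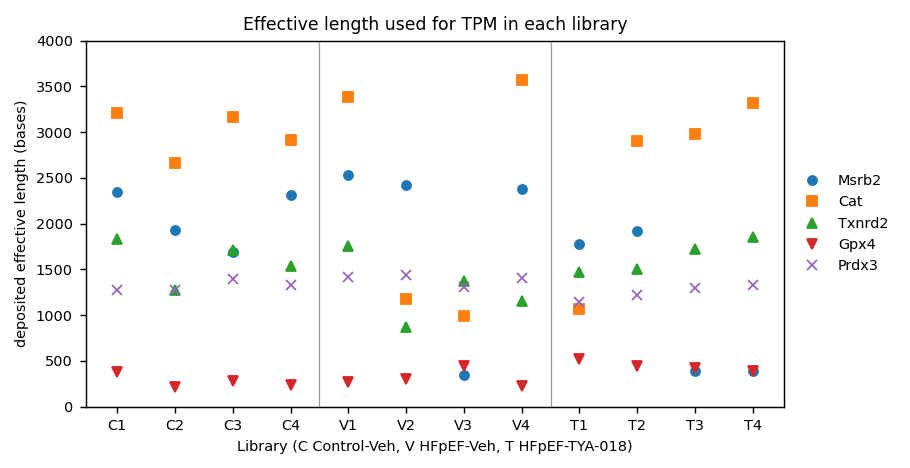
Points are the deposited effective lengths, in bases, of 5 genes in the 12 libraries. Msrb2 drops to 343 to 385 bases in V3, T3 and T4, Cat drops to 989 to 1179 bases in V2, V3 and T1, and Prdx3 stays between 1141 and 1444 bases.

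Some members share sequence with other genes, so their counts depend on how Salmon divided reads. By 31-base words of GENCODE M21 transcripts, 38.9% of Gpx4 was shared with other genes, the pseudogene Gpx4-ps2 among them, 26.6% of Sod2, 15.2% of Prdx1, 7.67% of Glrx2, 7.36% of Prdx2, 6.95% of Txn1, 5.61% of Gclm and 5.41% of Sod1, and at most 2.34% of any other member. Of the called members, Prdx3, Prdx5, Msrb2, Msra, Gpx1, Txnrd1 and Nqo1 shared no such word. Msra overlaps 9630015K15Rik, Prdx5 overlaps Trmt112, Sod1 overlaps Scaf4 and Prdx2 overlaps Rnaseh2a and Junb, each on the opposite strand. Gss overlaps Acss2, Gssos1 and Gssos2, also on the opposite strand. Txnrd1 overlaps Gm38560 and Gm47073 on the opposite strand and Eid3 on the same strand. Of members not called, Gsr, Gclm, Hmox2 and Nfe2l2 also overlap a gene on the same strand. The kit was stranded, and the use of strand in quantification is not given in the sources used here.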

How the data were processed

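Left ventricle RNA of 12 mice, 4 per group, was measured by stranded polyA RNA-seq, and the authors deposited estimated counts, TPM and effective lengths per gene. Per the labels and methods, the authors quantified reads with Salmon 1.6.0 and summed transcripts to genes with tximport on a GENCODE mouse annotation. The labels list the human build hg38, and labels and methods differ in read length and layout, which the files do not settle. The deposited estimated counts were rounded to whole numbers, and the main test was that of edgeR 4.0.16 (R 4.3.3; filterByExpr, TMM, 1 quasi-likelihood fit over 12 libraries, two-sided), with Benjamini-Hochberg adjustment over 14333 genes, which held 99.981% of counts. The deposited TPM values entered alternatives on log2(TPM + 1) and log2(TPM + 0.1) with limma 3.58.1, and DESeq2 1.42.0 was another. The script was tested on simulated data. Leave-one-out fits kept the other 11 libraries. Gene positions and annotations came from GENCODE M21 (GRCm38), promoters from RefSeq (GRCm38.p6). Protein locations were assigned from textbook knowledge, and several enzymes have more than 1 place.

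Members and lists were chosen with earlier results of these data known. Every member is named, those called in a comparison with every library, and of each pathway list up to 3 genes with the smallest adjusted p among those called in either of the first 2 comparisons. Some results that these rules would name are not reported here. Cell type lists are given as summed CPM. The markers of adipocytes summed to at most 0.339 CPM, of atrial muscle to at most 2.83 and of liver to 25.2 to 73.9 CPM in Control-Veh, 2.31 to 12.7 in HFpEF-Veh and 2.98 to 63.8 in HFpEF-TYA-018. Replicates are separate mice by their animal numbers, and p-values measure the spread between these mice. Depth was 61.2 to 83.9 M counts per library (M, 1000000).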

Additional observations from a re-analysis of the deposited data

Results flagged for a closer look

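In 6 of 102 sets of 4 libraries, each set being 1 member in 1 group, the extreme library stood apart from the other 3 by Dixon's test, about the 1 in 20 that chance gives. Txnrd2 was at 30.3 CPM in C2 of Control-Veh beside 7.83 to 10.5 in the other controls. Gpx1 was at 31.8 CPM in T3 of HFpEF-TYA-018 beside 29.3 to 29.7, and Gsr at 13.1 CPM in C4 of Control-Veh beside 11.6 to 11.8. Glrx was at 9.75 CPM in V1 of HFpEF-Veh beside 12.9 to 13.1. Sod3 was low in 1 library of each of 2 groups, at 34.2 CPM in C1 of Control-Veh beside 36.9 to 37.0 and at 50.1 CPM in V3 of HFpEF-Veh beside 55.5 to 56.3.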

How the results depend on the processing

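No paired analysis was possible because each mouse has its own number, which occurs in 1 group only. Against Control-Veh, HFpEF-Veh had 3033 genes called. That count was 1444 with effective lengths as an offset, 3 with the globin share as a covariate, 172, 309 and 33 with limma on log2(TPM + 1), log2(TPM + 0.1) and log2(TPM + 1) without a filter, and 1055 on TPM rescaled to protein-coding nuclear genes. Leaving out 1 library gave 1986 (without C4) to 3992. The corresponding 9 members became 4, 0, 1, 1 and 0 under the first 5 of these settings, and 5 (without C3) to 11 with 1 library left out. The 2767 genes called after TYA-018 against HFpEF-Veh became 1221 with the offset, 8 with the globin covariate, 1051 with limma without a filter, 742 on the rescaled TPM, and 1485 (without T1) to 3251 with 1 library left out, 1631 of them without T2. The 11 members became 5, 0, 7 and 3, and 6 (without T1) to 12. On log2(TPM + 1) the split of these genes went from 1280 higher and 1487 lower to 2264 higher and 66 lower. The 840 genes called between HFpEF-TYA-018 and Control-Veh became 206 with the offset, 441 with the globin covariate, 1514 with DESeq2, 9, 11 and 11 under the 3 unscaled limma settings, 94 on the rescaled TPM, and 308 (without T2) to 809 with 1 library left out. The 9 members became 4 with the offset, 0, 0 and 0 under those limma settings and 2 on the rescaled TPM, and 6 to 10 with 1 library left out. Of single genes, the Msrb2 difference in HFpEF-Veh reversed, to 0.66 with the offset and to 0.17 on the rescaled TPM. The causes of these changes were not tested.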

Other observations

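Sod1, Prdx5 and Gpx4, the 3 most abundant members per length, were each lowest in C1 and highest in C2 among the controls, at 202 and 336 CPM for Sod1, 286 and 478 for Prdx5 and 180.0 and 317 for Gpx4. Without C1, 6 members were lower in HFpEF-Veh rather than 3, and 11 were called in all.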
